A study of Mus musculus with 12 samples.

Results

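The levels of 7 zinc-handling genes were followed in the ischemic mouse brain, namely 3 metallothioneins (Mt1, Mt2 and Mt3), the zinc exporters Slc30a1 and Slc30a3, and the zinc importers Slc39a14 and Slc39a1. They were listed by name, with earlier results of these data known, from a table of 39756 genes, and all 7 were among the 17558 genes with enough counts to be tested. Poly(A) RNA came from the ischemic hemisphere of 12 young adult male C57BL/6J mice, divided into the groups Sham, Vehicle and LJP with 4 mice each. Sham mice underwent sham surgery and were given saline. Vehicle mice had their middle cerebral artery, which supplies much of the hemisphere, closed by a filament that was later withdrawn (tMCAO), and were also given saline. LJP mice underwent tMCAO and were given Laminaria japonica polysaccharide, a sulfated polysaccharide of brown algae. By the study's methods all mice were dosed into the stomach once daily from before surgery onward, and the dose and time point of the sequenced mice are not given in the labels.

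Metallothioneins are small proteins, rich in cysteine, that bind zinc and copper ions and take up reactive oxygen species. Free zinc activates the transcription factor Mtf1, which binds metal response elements in the promoters of Mt1, Mt2 and Slc30a1, so these genes are widely used as readouts of cellular zinc, and Mt1 and Mt2 also respond to glucocorticoids and to cytokines that act through Stat3. Mt3 is the form enriched in brain and was first described as a growth inhibitory factor. Slc30a1 (ZnT1) moves zinc out of the cell, and Slc30a3 (ZnT3) loads zinc into the glutamate vesicles of cortical and hippocampal neurons. Slc39a14 (ZIP14) carries zinc, iron and manganese into cells and is known as an acute-phase gene, and Slc39a1 (ZIP1) is a widely expressed zinc importer of the plasma membrane.

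The coding sequences of the 3 metallothioneins are shown because they show what is counted and how far reads of one gene can be taken for another. They were read from the GENCODE M21 transcripts Mt1-201, Mt2-201 and Mt3-201 of GRCm38, each with 3 exons on the plus strand, and the codons for cysteine are in capitals.
Mt1: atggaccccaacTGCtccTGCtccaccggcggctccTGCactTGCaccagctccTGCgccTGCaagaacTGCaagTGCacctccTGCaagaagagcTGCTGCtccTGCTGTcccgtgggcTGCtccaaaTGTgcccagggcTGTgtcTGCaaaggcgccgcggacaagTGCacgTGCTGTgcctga
Mt2: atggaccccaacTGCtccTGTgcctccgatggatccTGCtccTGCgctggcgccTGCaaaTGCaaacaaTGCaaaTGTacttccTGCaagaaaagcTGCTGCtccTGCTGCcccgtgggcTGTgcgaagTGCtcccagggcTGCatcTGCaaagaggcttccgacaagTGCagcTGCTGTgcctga
Mt3: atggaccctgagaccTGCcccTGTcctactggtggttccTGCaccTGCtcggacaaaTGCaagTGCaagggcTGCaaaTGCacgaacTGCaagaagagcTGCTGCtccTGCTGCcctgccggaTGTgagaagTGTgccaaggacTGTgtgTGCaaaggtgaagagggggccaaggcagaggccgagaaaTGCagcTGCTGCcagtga
Each sequence held 20 cysteine codons, which were 32.8% of the 61 codons before the stop in Mt1 and Mt2 and 29.4% of the 68 codons in Mt3. The coding sequences of Mt1 and Mt2 were identical at 79.6% of aligned positions, those of Mt1 and Mt3 at 68.9% and those of Mt2 and Mt3 at 69.2%. The longest identical run between 2 of the transcripts was 27 bases (Mt1 and Mt3), and it was 20 bases between Mt1 and Mt2 and between Mt2 and Mt3. How the authors counted reads that match several genes is not given in the sources used here.

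The 3 genes lie side by side on the plus strand, Mt3 at chr8:94152607-94154148, Mt2 at chr8:94172618-94173567 and Mt1 at chr8:94178883-94180327 in the deposited table, whose positions match GRCm38. The gap between Mt2 and Mt1 was 5.315 kb. Mt4, the squamous epithelium form at the other end of the cluster, had 1 count over all 12 mice, in a Vehicle mouse. Promoter windows of 300 bases, from 250 bases before to 50 bases after a transcript start of RefSeq (GRCm38.p6), were available for 6 of the 7 genes (Slc39a14 was not matched). That start is the first base of the deposited gene for Mt2 and Mt3, but lies 206 bases inside the deposited gene for Mt1 and 84 bases inside it for Slc30a1, so the windows are not placed alike. The windows of the 3 metallothioneins are shown because the metal response element is the sequence through which Mtf1 acts on Mt1 and Mt2, with Mt3 for comparison. They lie at chr8:94178839-94179138 (Mt1), chr8:94172368-94172667 (Mt2) and chr8:94152357-94152656 (Mt3), all on the plus strand, and matches to the core of the element (TGCACNC or TGCGCNC, on either strand) are in capitals.
Mt1: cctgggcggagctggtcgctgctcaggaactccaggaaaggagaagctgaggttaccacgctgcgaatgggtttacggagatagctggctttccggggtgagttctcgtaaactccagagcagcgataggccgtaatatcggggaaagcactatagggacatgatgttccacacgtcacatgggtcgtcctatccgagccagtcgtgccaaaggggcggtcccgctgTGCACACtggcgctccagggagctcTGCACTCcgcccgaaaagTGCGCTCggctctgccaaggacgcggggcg
Mt2: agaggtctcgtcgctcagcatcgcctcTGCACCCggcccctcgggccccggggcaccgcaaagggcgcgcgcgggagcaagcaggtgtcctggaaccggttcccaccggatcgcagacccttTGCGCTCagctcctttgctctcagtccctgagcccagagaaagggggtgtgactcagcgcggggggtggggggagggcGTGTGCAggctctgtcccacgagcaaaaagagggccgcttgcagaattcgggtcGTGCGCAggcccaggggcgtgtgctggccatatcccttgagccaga
Mt3: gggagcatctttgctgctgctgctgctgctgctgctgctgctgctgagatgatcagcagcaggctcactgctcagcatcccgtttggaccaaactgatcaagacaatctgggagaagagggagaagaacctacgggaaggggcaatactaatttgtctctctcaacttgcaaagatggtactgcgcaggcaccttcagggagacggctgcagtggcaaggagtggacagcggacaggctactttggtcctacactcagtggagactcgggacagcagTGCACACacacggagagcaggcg
The core matched at 4 places in the Mt2 window, at 3 in the Mt1 window and at 1 in the Mt3 window, each counted around its own RefSeq start. The window of Slc30a1 (chr1:191906531-191906830, plus strand) held 2 matches. Slc30a3 had 2 windows on the minus strand of chromosome 5, 1 with a single match and 1 with none, and the Slc39a1 window on chromosome 3 had none. Of 32851 windows of the same length, belonging to 27025 genes, 25.7% held at least 1 match, 1.97% held 3 or more and 0.517% held 4 or more. The antioxidant response element core (TGACNNNGC) matched once each in the windows of Mt2, Slc30a1 and Slc39a1, against 12.4% of all windows with a match. The STAT site (TTCNNNGAA, 8.3% of all windows) matched in none of the 6 genes, and the glucocorticoid receptor motif AGAACA (19% of all windows) matched once, in a Slc30a3 window. Both strands were searched, the matches to the metal response element did not overlap those to the other motifs, and a match is a description of letters only. The metallothionein windows end before the coding start (94179311 for Mt1, 94172848 for Mt2 and 94152800 for Mt3), and the bases between were not searched. These counts thus cover the windows and not whole promoters.

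Total counts per mouse lay between 17960353 and 22216315, and 3 counts correspond to 0.129 to 0.173 CPM (counts scaled to the TMM-normalized library size). The summed CPM of 6 astrocyte genes lay between 2593 and 4563 over all mice. That of 6 striatal neuron genes was 1980 to 2285 in Sham, 860, 192, 769 and 571 in Vehicle mice 1 to 4 and 720 to 1265 in LJP. All 6 of these genes fell in Vehicle against Sham (edgeR adjusted p below 0.05, median log2 fold change -2.23), as did 17.3% of all tested genes. The Vehicle libraries were uneven: mice 1 and 2 of that group had summed CPM of 132 and 29.0 for 6 neutrophil genes, 651 and 1367 for 6 endothelial genes and 89.2 and 51.2 for 5 erythroid genes, whereas mice 3 and 4 had 0.538 and 3.72, 271 and 333, and 9.80 and 14.4. Summed astrocyte markers were 2657 and 2593 CPM in Vehicle mice 1 and 2 and 4026 and 4115 in mice 3 and 4, a sum carried by Slc1a2 (mean 1765 CPM), which fell by 0.76 against Sham on the log2 scale, while Aldh1l1 of the same list rose by 1.12. In the Sham and LJP groups the neutrophil sum did not exceed 0.707 CPM and the endothelial sum lay between 178 and 243. Markers of airway and lung were at 9.03 to 13.6 CPM in Sham and Vehicle and at 0.358 to 0.669 in LJP, with 4 of the 6 at 0 in every LJP mouse.

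In the Vehicle group all 3 metallothioneins and both importers were higher than in Sham, by 1.59-fold for Mt3 to 7.94-fold for Mt2, while neither exporter passed the test. Thus 5 of the 7 genes rose and none fell, against 22.7% of all tested genes that rose and 17.3% that fell in this comparison (edgeR quasi-likelihood test, Benjamini-Hochberg adjusted p below 0.05). The lowest Vehicle value of each of these 5 genes was above its highest Sham value, which held for 20.7% of tested genes, and 18.8% were lower without overlap. In whole tissue, fewer cells of a type and less RNA per cell cannot be told apart, nor can more cells and more RNA per cell.

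**Figure D1:**
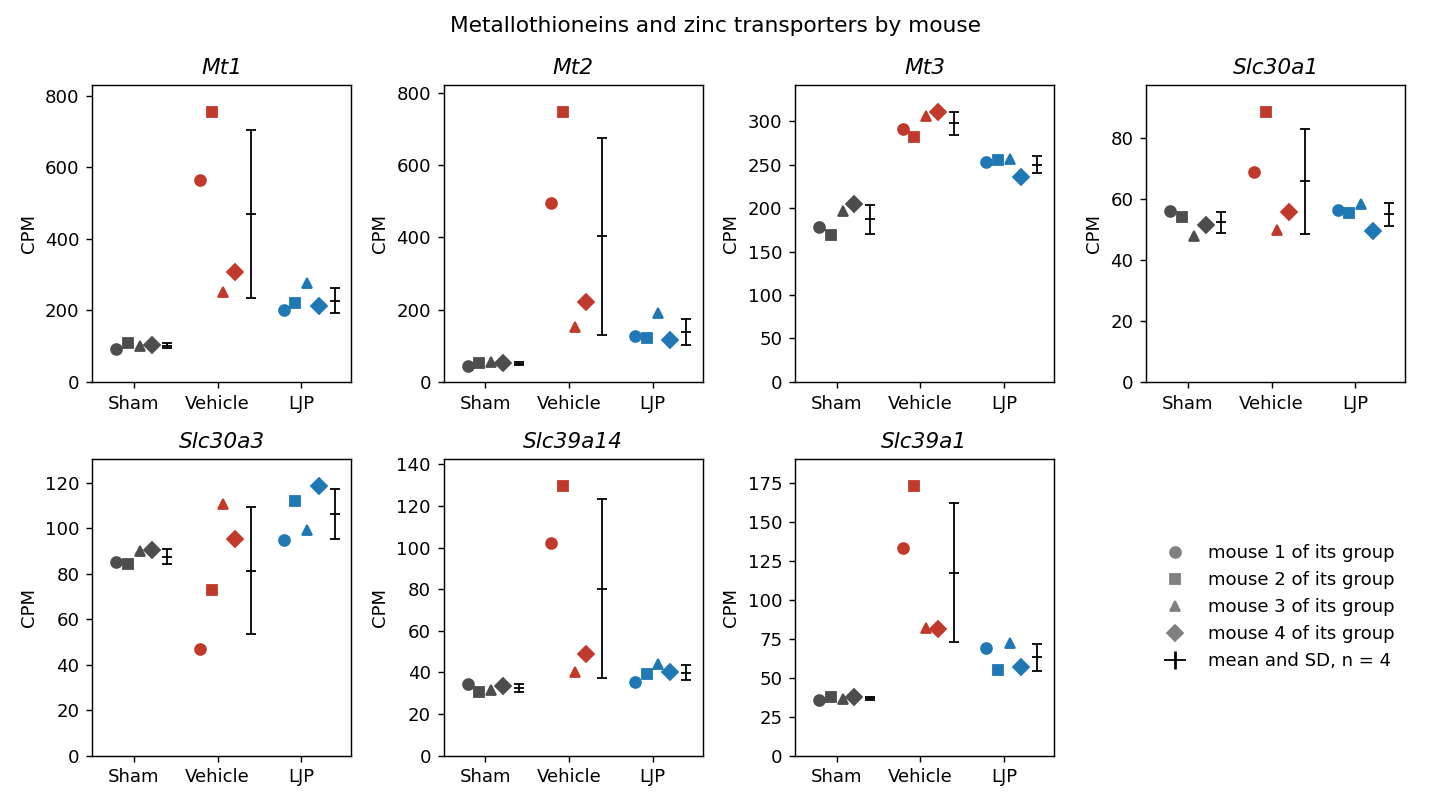
Level of each gene in every mouse. The y axis of each panel is CPM on a linear scale from 0, each symbol is 1 mouse (the shape gives its number within the group), and the black mark beside the symbols is the mean with the SD of 4 mice. Vehicle mice 1 and 2 stand above the other mice for Mt1, Mt2, Slc39a14, Slc39a1 and Slc30a1, while the 4 Vehicle mice lie close together for Mt3, at 282 to 311 CPM.

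Mt2 had the largest fold change of the 7 genes. Its level was 45.1, 52.2, 54.9 and 51.0 CPM in the Sham mice and 494, 747, 151 and 221 CPM in the Vehicle mice. The log2 fold change was 2.99 (SE 0.412, adjusted p = 0.000369), larger than that of 98.1% of all tested genes. Every Vehicle mouse was above every Sham mouse, but the highest Vehicle mouse was 4.95 times the lowest.

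Mt1, the neighbour of Mt2, had the same order of Vehicle mice. It was at 91.1, 109, 101 and 104 CPM in Sham and at 564, 755, 250.1 and 307 CPM in Vehicle. Its log2 fold change was 2.21 (SE 0.285, adjusted p = 0.000245), a 4.63-fold difference. The highest Vehicle mouse was 3.02 times the lowest, against 1.20 times in Sham.

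Mt3, the brain-enriched form, changed less and far more evenly. The Sham mice had 178, 169, 197 and 205 CPM and the Vehicle mice 291, 282, 306 and 311 CPM. The log2 fold change of 0.67 was small beside those of Mt1 and Mt2, but its SE was 0.0753 and its adjusted p (0.000134) was the lowest of the 7. The Vehicle mice were close together, and the pair of mice that led for Mt1 and Mt2 were the lowest of the group for Mt3.

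The makeup of the metallothionein pool differed accordingly. Mt1 and Mt2 together were 43.1% to 48.8% of the summed CPM of the 3 genes in the Sham mice. Their share was 78.4%, 84.2%, 56.7% and 63.0% in Vehicle and 56.3%, 57.1%, 64.7% and 58.0% in LJP. The sum itself was 314 to 361 CPM in Sham, 1350, 1785, 707 and 839 CPM in Vehicle and 579, 596, 726 and 562 CPM in LJP. Per kb of the deposited gene length, mean levels in Sham were 348 ± 30.9 CPM per kb for Mt3, 106 ± 7.92 for Mt1 and 91.4 ± 7.41 for Mt2 (SD, n = 4). In Vehicle they were 553 ± 24.4, 488 ± 244 and 725 ± 491, so the order of the 3 genes was not separated by the spread there. The deposited length of Mt1 is 961 bases and its GENCODE transcript has 549, and with the transcript length the mean of Mt1 was 185 in Sham and 854 in Vehicle, against 99.4 and 789 for Mt2.

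The exporter Slc30a1 (chr1:191906697-191913248, plus strand) had the same order of Vehicle mice as Mt1 and Mt2, with a smaller difference that did not pass the test. It was at 56.1, 54.1, 48.0 and 51.7 CPM in Sham and at 69.0, 88.7, 49.9 and 55.9 CPM in Vehicle. Vehicle mice 1 and 2 were above all Sham mice and mice 3 and 4 were within the Sham range. The log2 difference was 0.33 (SE 0.146, 95% CI 0.01 to 0.65, adjusted p = 0.0886) and rested on single Vehicle mice. Without Vehicle mouse 2 it was 0.15 (adjusted p = 0.297), and it passed the test only without Vehicle mouse 3 (0.44, adjusted p = 0.0156).

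The vesicular transporter Slc30a3 (chr5:31086106-31108244, minus strand) gave no call. Its level was 85.3, 84.2, 89.8 and 90.4 CPM in Sham, and 46.7, 72.6, 111 and 95.2 CPM in Vehicle. Vehicle mice 1 and 2, the highest for Mt1 and Mt2, were the lowest for Slc30a3, and mice 3 and 4 were above all Sham mice. Cortical and general neuron marker sums were also lowest in Vehicle mice 1 and 2: the summed CPM of 6 cortical glutamatergic genes was 4038, 3578, 5228 and 5038 in Vehicle mice 1 to 4 (4541 to 5165 in Sham), and that of 6 general neuron genes was 3611, 2869, 4354 and 4196 (4716 to 5194 in Sham). Their part in the Slc30a3 values was not tested. The log2 difference was -0.11 (SE 0.196, 95% CI -0.53 to 0.32, adjusted p = 0.69), and its sign turned to 0.09 without Vehicle mouse 1. The within-mouse log2 ratio of Slc30a3 to Slc17a7, which loads glutamate into the same vesicles, was -4.14 ± 0.0934 in Sham, -4.46 ± 0.485 in Vehicle and -4.12 ± 0.0350 in LJP (SD, n = 4). None of the 3 differences in this ratio passed the exact permutation test (p = 0.229, 0.114 and 0.6 for Vehicle against Sham, LJP against Vehicle and LJP against Sham).

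Both importers rose in Vehicle. Slc39a1 (chr3:90248190-90253613, plus strand) was at 35.6, 37.8, 36.3 and 37.6 CPM in Sham and at 134, 174, 81.9 and 81.4 CPM in Vehicle. The 2 groups were far apart, although Vehicle mice 1 and 2 again stood above mice 3 and 4. Its log2 fold change was 1.68 (SE 0.213, adjusted p = 0.00023), or 3.19-fold.

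Slc39a14 (chr14:70303467-70351452, minus strand) showed a wider spread. It was at 34.5, 30.7, 31.5 and 33.5 CPM in Sham and at 102, 130, 40.1 and 48.9 CPM in Vehicle. Mice 1 and 2 were thus far above Sham, while mouse 3 exceeded the highest Sham mouse by only a few CPM. The log2 fold change was 1.30 (SE 0.293, adjusted p = 0.00474). It fell to 0.97 without Vehicle mouse 2 and was 1.52 without Vehicle mouse 3, and the call held in all 12 fits that left out 1 mouse.

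The Vehicle mice with the highest Mt1, Mt2, Slc39a14 and Slc39a1 were the pair with the highest neutrophil, endothelial and erythroid sums given above. Of the 6 neutrophil markers, 3 (Ly6g, Elane and Retnlg) were at 0 in all Sham mice, and Elane was at 0 in all 12 mice. Vehicle mouse 3, with a neutrophil sum of 0.538 CPM, had 250.1 CPM of Mt1 and 151 CPM of Mt2, each above every Sham mouse. The LJP mice, with neutrophil sums of at most 0.707 CPM, also had more Mt1 and Mt2 than every Sham mouse. Summed markers of microglia and macrophages (6 genes) were higher in Vehicle and in LJP than in Sham. Their sum was 188 to 193 CPM in Sham, 304, 503, 521 and 545 CPM in Vehicle and 542, 326, 536 and 317 CPM in LJP. Vehicle mouse 1, of the pair with the most Mt1 and Mt2, had the lowest sum of its group. Of these 6 markers, 5 (all but P2ry12) rose against Sham in Vehicle and in LJP, Cd68 by 3.61 and 3.29 on the log2 scale. Of all tested genes, 22.7% rose in Vehicle against Sham and 3.85% in LJP against Sham. Summed choroid plexus markers were 24.9, 29.0, 533 and 490 CPM in the Vehicle mice and were lowest in the pair with the most Mt1 and Mt2. The other groups went the other way. LJP mouse 3, with the highest sum of its group (388 CPM), had the most Mt1 and Mt2. Sham mouse 1, with the lowest sum of its group (32.1 CPM), had the least. Summed markers of oligodendrocytes were 5503 to 6046 CPM in Vehicle, above every Sham mouse (4468 to 5447) and every LJP mouse (4421 to 5441). Of those 6 genes, 1 rose in Vehicle against Sham and 5 did not pass. The part of any of these cell types in the differences was not tested.

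**Figure D2:**
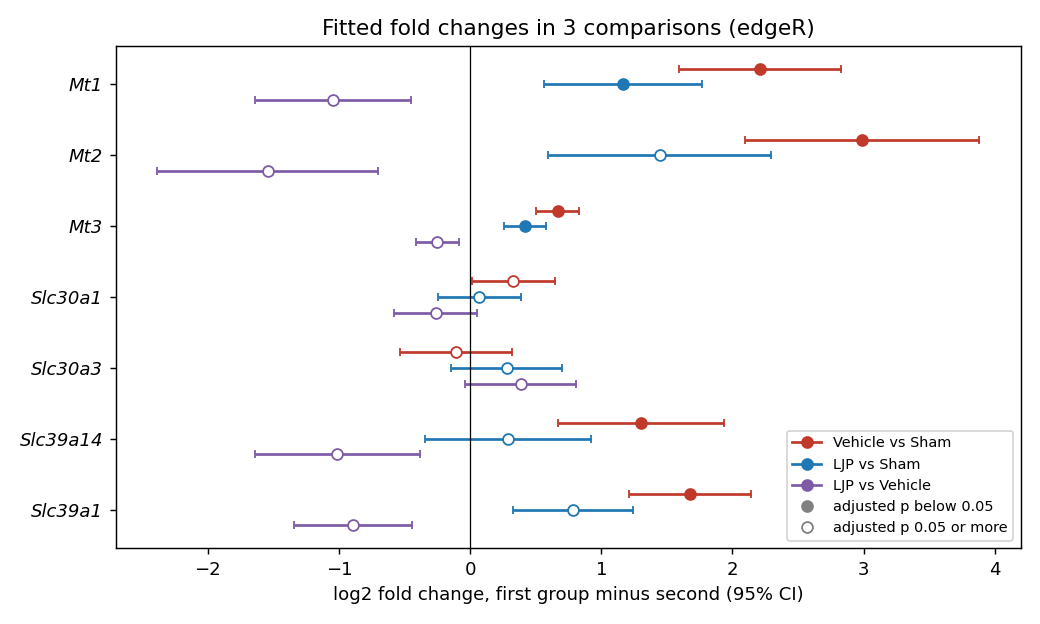
Fitted log2 fold changes of the 7 genes in the 3 comparisons. The x axis is the log2 fold change, first group minus second, points are edgeR estimates with 95% confidence intervals, and filled points have an adjusted p below 0.05. The 5 filled points of Vehicle against Sham run from 0.67 for Mt3 to 2.99 for Mt2, and every point of LJP against Vehicle is open.

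The mean of the LJP mice lay between those of Sham and Vehicle for the metallothioneins and importers, and no gene of the 7 passed the edgeR test between LJP and Vehicle. In that comparison 0% of all tested genes rose and 0.0228% fell, 4 genes in all (Csf3, Scgb1a1, Sftpa1 and Sftpb), so the count of 0 among the 7 is not particular to them. Scgb1a1, Sftpa1 and Sftpb are among the airway and lung markers, whose sum was 0.358 to 0.669 CPM in LJP and 9.03 to 13.6 in Sham and Vehicle. The source of that difference between libraries was not tested. Without adjustment, 5212 of the 17558 genes had p below 0.05. DESeq2, fitted to the same counts, called 9.15% of its genes lower and 3.69% higher in LJP, and its lower calls held 5 of the 7 genes (Mt1, Mt2, Mt3, Slc39a14 and Slc39a1). LJP and Vehicle did not overlap for Mt3 and Slc39a1, which were lower in LJP. Such separation held for 5.91% of tested genes with lower and 5.77% with higher LJP values. The Vehicle mice serve in this comparison and in that with Sham, so the 2 sets of values are not independent.

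For Mt2 the LJP mice were at 126, 120.2, 192 and 115 CPM. Mouse 3 of the LJP group exceeded Vehicle mouse 3 (151 CPM), so the groups overlapped. The log2 difference from Vehicle was -1.54 (SE 0.39, edgeR adjusted p = 0.0678, DESeq2 adjusted p = 0.00955).

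For Mt1 they were at 200.1, 220.0, 278 and 211 CPM, against a lowest Vehicle value of 250.1 CPM. The log2 difference was -1.05 (SE 0.275, edgeR adjusted p = 0.0678, DESeq2 adjusted p = 0.00606). Here too LJP mouse 3 alone reached into the Vehicle range.

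Mt3 differed least among the metallothioneins, but without overlap. It was at 253, 255, 256 and 236 CPM in LJP, every value under the lowest Vehicle mouse. The log2 difference was -0.25 (SE 0.075, edgeR adjusted p = 0.0729, DESeq2 adjusted p = 0.0223). The exact permutation test for Mt3 gave p = 0.0286, the smallest possible with 4 mice against 4.

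Slc39a1 was at 69.4, 54.8, 72.2 and 57.1 CPM in LJP. All 4 values were under the lowest Vehicle value of 81.4 CPM and above the highest Sham value of 37.8 CPM. The log2 difference from Vehicle was -0.89 (SE 0.208, edgeR adjusted p = 0.0678, DESeq2 adjusted p = 0.00374). Slc39a14 was at 35.4, 39.2, 44.2 and 40.4 CPM, with 2 LJP mice above the lowest Vehicle mouse, and its log2 difference was -1.01 (SE 0.291, edgeR adjusted p = 0.0709, DESeq2 adjusted p = 0.0122).

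With all mice, the exporters passed neither test. Slc30a1 was at 56.6, 55.5, 58.4 and 49.6 CPM in LJP, and its log2 difference was -0.26 (95% CI -0.58 to 0.06, edgeR adjusted p = 0.24, DESeq2 adjusted p = 0.257). Without 1 mouse it ranged from -0.37 (without Vehicle mouse 3) to -0.08 (without Vehicle mouse 2), and it passed in none of these 12 fits. Slc30a3 was at 94.7, 112, 99.3 and 119 CPM, with a log2 difference of 0.38 (95% CI -0.04 to 0.81, edgeR adjusted p = 0.203, DESeq2 adjusted p = 0.185). This difference was 0.19 without Vehicle mouse 1 and 0.58 without Vehicle mouse 3, and it passed only in the latter fit (adjusted p = 0.0425). The LJP values of Slc30a3 overlapped those of Vehicle mice 3 and 4 and exceeded those of mice 1 and 2.

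The calls between LJP and Vehicle depended on single Vehicle mice. When Vehicle mouse 3 was left out, 5 of the 7 genes passed (Mt1, Mt2, Slc39a14 and Slc39a1 lower in LJP, Slc30a3 higher), among 3857 genes in all. Without Vehicle mouse 4, the first 4 of these passed, among 2095 genes. Neither total was split by direction, so these counts have no share of all genes in each direction beside them. Leaving out any other mouse gave no call among the 7. The log2 difference for Mt2 ranged from -1.81 (without Vehicle mouse 3) to -1.06 (without Vehicle mouse 2).

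Against Sham, LJP mice had more Mt1 and Mt3. These 2 genes passed the test and none of the 7 fell, against 3.85% of all tested genes that rose and 0.9% that fell. In all, 6 of the 7 genes (not Slc30a1) were higher in every LJP mouse than in every Sham mouse, which held for 12.9% of tested genes, while 12% were lower without overlap. Mt3 had a log2 fold change of 0.42 (SE 0.0752, adjusted p = 0.00687) that held without any 1 mouse. Mt1 had 1.16 (SE 0.277, adjusted p = 0.032), but this call was kept in only 4 of the 12 fits that left out a mouse. It was lost in each of the fits without 1 Sham or 1 LJP mouse (adjusted p 0.0527 to 0.109), although the estimate stayed between 1.05 and 1.22.

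The other genes fell near or beyond the threshold in this comparison. Mt2 had the larger estimate, 1.45, with an SE of 0.392 and an adjusted p of 0.0559, and Slc39a1 had 0.78 (SE 0.211, adjusted p = 0.0533). In a fit of the LJP and Sham mice alone, which leaves the uneven Vehicle mice out of the estimate of the spread, 6 of the 7 genes passed as higher, Mt2 with an adjusted p of 2.78e-05, against 12.1% of all genes in that fit that rose and 11.8% that fell. Slc39a14 differed by 0.29 (adjusted p = 0.654), Slc30a3 by 0.28 (adjusted p = 0.492) and Slc30a1 by 0.07 (95% CI -0.25 to 0.39, adjusted p = 0.853).

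Ratios of 2 genes within a mouse do not depend on how libraries are scaled, and show which genes changed unequally. In all, 6 ratios were compared in 3 comparisons with the exact two-sided permutation test, 18 tests in all, for which the smallest possible p of 0.0286 became 0.0468 after Benjamini-Hochberg adjustment. The log2 ratio of Mt2 to Mt1 was -0.997 ± 0.0793 in Sham, -0.35 ± 0.314 in Vehicle and -0.74 ± 0.167 in LJP (SD, n = 4). It was higher in every Vehicle and every LJP mouse than in any Sham mouse, at that smallest p, while LJP and Vehicle overlapped (exact p = 0.114).

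The clearest ordering was in the ratio of the exporter Slc30a1 to Mt1. In CPM this ratio was 0.616, 0.495, 0.475 and 0.496 in Sham, 0.122, 0.118, 0.200 and 0.182 in Vehicle, and 0.283, 0.252, 0.210 and 0.235 in LJP. The 3 groups did not overlap at any point. The log2 ratio was lower in Vehicle than in Sham by 1.78 on average and higher in LJP than in Vehicle by 0.69, each with an exact permutation p of 0.0286 (adjusted 0.0468). It was the only one of the 6 ratios to pass between LJP and Vehicle.

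Mt1 and Mt2 also moved apart from Mt3. The log2 ratio of Mt1 to Mt3 rose from -0.88 ± 0.168 in Sham to 0.52 ± 0.804 in Vehicle, and the ratio of Mt2 to Mt3 from -1.88 ± 0.144 to 0.16 ± 1.11 (SD, n = 4, exact permutation p = 0.0286 for each, adjusted 0.0468). Both were also higher in LJP than in Sham, at -0.15 ± 0.193 and -0.89 ± 0.315, and overlapped between LJP and Vehicle (exact p = 0.229 and 0.2). The ratio of Slc39a14 to Slc39a1 fell, from -0.18 ± 0.106 in Sham to -0.64 ± 0.301 in Vehicle and -0.66 ± 0.227 in LJP (exact p = 0.0286 against Sham in each case, adjusted 0.0468). The difference between LJP and Vehicle, -0.02, was smaller than the spread within either group.

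**Figure D3:**
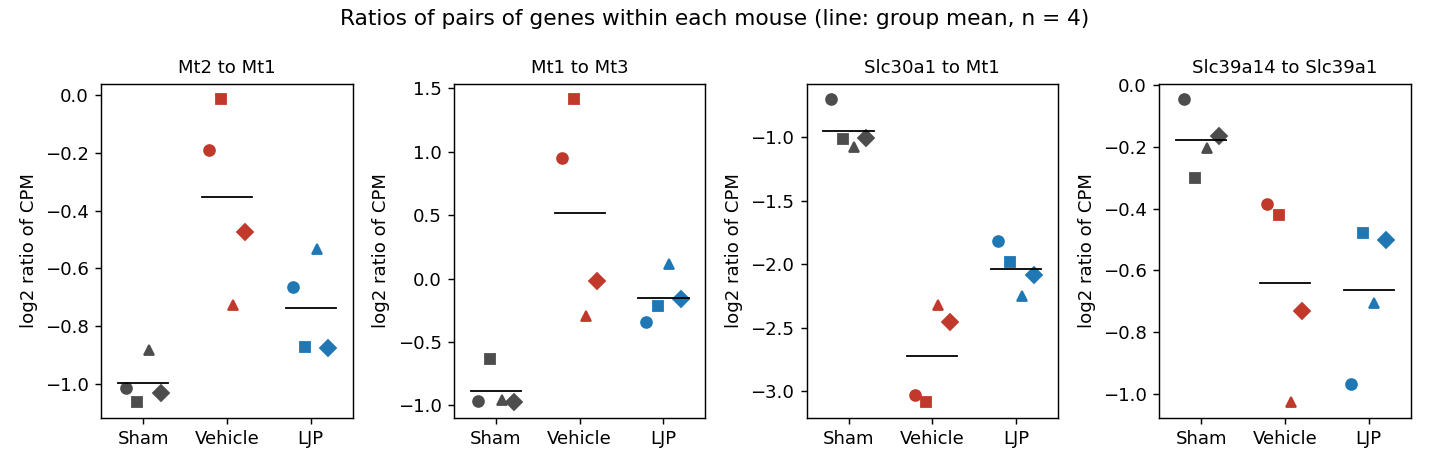
Log2 ratios of CPM for 4 pairs of genes in each mouse. Each symbol is 1 mouse (the shape gives its number within the group) and the line is the mean of 4 mice. For Slc30a1 to Mt1 the 3 groups separate fully, with group means of -0.95 in Sham, -2.72 in Vehicle and -2.03 in LJP.

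The rest of the zinc transporter families was called about as often as the table at large in Vehicle against Sham. Of the 20 other members, 19 were tested, and 4 rose, 5 fell and 10 did not pass, with a median log2 fold change of -0.02, while 22.7% of all tested genes rose and 17.3% fell. The median over all tested genes was 3.54e-05. The 4 that rose were among the 12 tested importers of the SLC39 family, and the difference between importers and exporters was not tested. Slc39a8 (ZIP8), a zinc and manganese importer, had the largest change at 1.66 (SE 0.381, adjusted p = 0.00527), with 3.86, 3.32, 2.19 and 3.32 CPM in Sham and 8.80, 19.8, 4.63 and 6.79 CPM in Vehicle. Slc39a11 (0.54), Slc39a7, which releases zinc from the endoplasmic reticulum (0.43), and Slc39a13 (0.30) rose less.

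Among the importers, Slc39a10 fell by 0.64 and Slc39a3 by 0.37 on the log2 scale. Of the exporters, 3 fell, namely Slc30a2 by 0.94, Slc30a10, a manganese exporter, by 0.93, and Slc30a9 by 0.30 on the log2 scale, and 0 of the 7 tested exporters rose. Slc30a2 was at a low level throughout, with a mean of 4.24 CPM in Sham and 2.22 CPM in Vehicle.

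**Figure D4:**
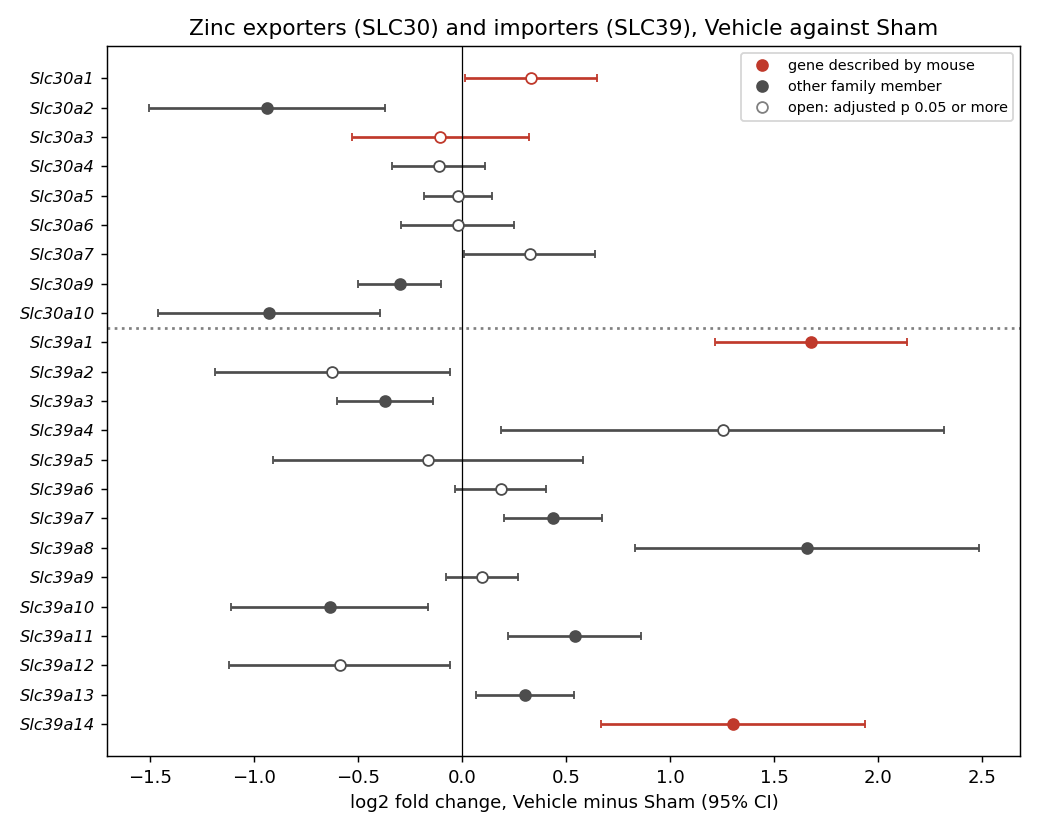
Log2 fold changes of the zinc exporters (SLC30, above the dotted line) and importers (SLC39, below it) in Vehicle against Sham. Points are edgeR estimates with 95% confidence intervals, filled where the adjusted p is below 0.05, and red for the genes described by mouse. Slc39a1, Slc39a8 and Slc39a14 are the 3 filled points above 1, and no exporter has a filled point above 0.

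None of these 19 transporters passed the edgeR test between LJP and Vehicle or between LJP and Sham, with smallest adjusted p-values of 0.0678 and 0.269. Of all tested genes, 0% rose and 0.0228% fell in the first comparison, and 3.85% rose and 0.9% fell in the second. The count of 0 is therefore not read as particular to these transporters. Slc39a2 had the smallest p in the first of these, with a log2 difference of 0.98 (SE 0.259).

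Of 6 transcription factors known to act on metallothionein genes, 3 rose and 2 fell in Vehicle against Sham, a comparison in which 22.7% of all tested genes rose and 17.3% fell. Stat3, which carries cytokine signals to the nucleus, rose by 1.79 on the log2 scale (SE 0.286, adjusted p = 0.000796), and was at 294, 256, 111 and 112 CPM in Vehicle against 52.1 to 59.6 in Sham. Nfe2l2, the regulator of antioxidant genes, rose by 1.32 (SE 0.258, adjusted p = 0.00232), and Sp1 by 0.45 (adjusted p = 0.0249). The zinc sensor Mtf1 itself fell slightly, by 0.23 (SE 0.0776, adjusted p = 0.0306), and Nr3c1, the glucocorticoid receptor, fell by 0.50 (SE 0.0821, adjusted p = 0.000981). Nr3c1 was also lower in LJP than in Sham (log2 difference -0.39, adjusted p = 0.0167), where 0.9% of all tested genes fell. None of the 6 passed between LJP and Vehicle, where 0% of all tested genes rose and 0.0228% fell.

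Of the partners of the zinc-loaded vesicle and the receptors and channels on which zinc acts, none passed the test as higher in any comparison. Over all tested genes, 22.7% were called higher in Vehicle against Sham, 0% in LJP against Vehicle and 3.85% in LJP against Sham. Of 9 vesicle genes, Ap3m2, a subunit of the AP-3 adaptor, fell by 0.42 (adjusted p = 0.0365) and the chloride transporter Clcn3 fell by 0.26 (adjusted p = 0.011) in Vehicle against Sham, where 17.3% of all tested genes fell, and Ap3b1 differed by -0.27 (adjusted p = 0.0486) in LJP against Sham. Slc17a7 did not pass, with a log2 difference of 0.14 (SE 0.11, adjusted p = 0.316) in Vehicle against Sham and 0.25 (SE 0.11, adjusted p = 0.247), without overlap, in LJP against Sham. Of 5 zinc targets, the glutamate receptor subunits Gria2 and Grin2a fell by 0.80 and 0.74 and the cation channel Trpm2 by 0.48 on the log2 scale (adjusted p = 0.00855, 0.0123 and 0.0237), again beside 17.3% of all tested genes. Of the neuron markers, all 6 striatal genes, 2 of 6 general genes (Snap25 by 0.53 and Syt1 by 0.60 on the log2 scale) and 1 of 6 cortical glutamatergic genes (Neurod6 by 1.06) fell in Vehicle against Sham. The other 9 did not pass. The part of neuron content in these values was not tested. In LJP against Vehicle, Gria2 and Trpm2 were higher in every LJP mouse than in any Vehicle mouse, which held for 5.77% of all tested genes, with log2 differences of 0.67 (SE 0.201, adjusted p = 0.0735) and 0.43 (SE 0.152, adjusted p = 0.101) that did not pass.

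Copper handling genes were examined because metallothioneins also bind copper. Of 8 tested, 5 rose in Vehicle against Sham, none fell, and the median log2 fold change was 0.55, beside 22.7% of all tested genes that rose and 17.3% that fell. The importer Slc31a1 rose by 0.81, the exporter Atp7a by 0.80, the chaperones Atox1 by 0.79 and Ccs by 0.61, and the copper and zinc superoxide dismutase Sod1 by 0.20 (adjusted p between 0.000745 and 0.0262). None passed between LJP and Vehicle, where 0% of all tested genes rose and 0.0228% fell. None passed between LJP and Sham either, where 3.85% rose and 0.9% fell.

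The genes whose profiles were most like those of the members were found from the root mean square difference of log2 CPM, each gene centred on its mean over the 12 mice, among 11241 genes with a mean log2 CPM of at least 3. For Mt2 they were Pdpn, which encodes the membrane glycoprotein podoplanin (0.164), the galactosyltransferase gene B4galt1 (0.210) and Sbno2 (0.212). Pdpn had mean levels of 7.68, 55.4 and 18.4 CPM in Sham, Vehicle and LJP. For Mt1 they were Efemp2 (0.137), an extracellular matrix gene, Tuba1c (0.166), an alpha tubulin gene, and Blnk (0.175), a B cell adaptor. By the same measure Mt1 differed from Slc39a1 by 0.262, from Mt2 by 0.321 and from Mt3 by 0.710.

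For Mt3 the closest were Coro1a (0.0841), an actin-binding protein of leukocytes, Ppm1m (0.0861) and Clu (0.0928), the secreted chaperone clusterin. For Slc39a14 they were Igfbp4 (0.0994), which binds insulin-like growth factors, Lmna (0.110), the gene of lamin A, and Arrdc4 (0.120). For Slc30a3 they were Sidt1 (0.121), Kcnj16 (0.124) and Mettl7a1 (0.133). These distances are over the same 12 libraries and describe likeness only.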

How the data were processed

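The authors deposited 1 table of raw read counts per gene and mouse, with a length for each gene, made from paired-end reads of poly(A) RNA. The submitters' processing notes name featureCounts, DESeq2 and the builds GRCm39 and mm10 without versions or roles, and the gene positions in the table match GRCm38. The aligner, the strand setting and the handling of reads shared between genes are not given in the sources used here, and overlapping genes are uncertain to that extent.

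The count model was fitted with edgeR 4.0.16 in R 4.3.3 (filterByExpr, TMM, group means of all 12 mice, glmQLFit and glmQLFTest). Benjamini-Hochberg adjustment ran over all 17558 genes tested, and an adjusted p below 0.05 was counted as a call. A prior count of 2 went into log2 CPM. Exact permutation tests enumerated all splits of 4 mice against 4 and were two-sided. The script was tested on simulated data. The 2 mice of each pair within a group differed by more than sampling noise (chi-square per degree of freedom at least 2.48).

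The 7 genes, the zinc and cell type lists and the rule for naming genes (all 7 members, the list genes that passed the test or had the smallest p, and the 3 nearest profiles of 5 members) were chosen with earlier results of these data known. Alternatives were DESeq2 1.42.0, other normalizations, no filter, fits of only the 2 groups compared, a block for the replicate number, another prior count for the ratios, and leaving out each mouse. The length of the GENCODE transcript, used beside the deposited length, was chosen after seeing the data. Nothing in the labels says how animals were housed or processed together beyond 1 shared batch label, so p-values measure the spread between these mice. Limits from counts of 0 and intervals of counts cover counting error only. Figures were drawn with matplotlib 3.10.9.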

Additional observations from a re-analysis of the deposited data

Results flagged for a closer look

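In 2 of 21 sets of 4 mice (7 genes in 3 groups), a single mouse stood far from the other 3 by Dixon's test at the 95% level, which uses the gap to the nearest mouse divided by the range of the group as a ratio. Chance alone gives about 1 such set in 20. Mt2 in LJP mouse 3 (192 CPM, the other LJP mice at 115 to 126 CPM) had a ratio of 0.855. Mt3 in LJP mouse 4 (236 CPM, the others at 253 to 256 CPM) had a ratio of 0.845. LJP mouse 3 was also the highest of its group for Mt1, Slc30a1, Slc39a14 and Slc39a1. The same mouse had the highest choroid plexus sum of the LJP group (388 CPM, the others at 22.0 to 26.4) and the lowest striatal neuron sum (720 CPM, the others at 933 to 1265), and the part of either in the Mt2 value was not tested.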

How the results depend on the processing

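Vehicle against Sham was stable for the 5 called genes: Mt1, Mt2, Mt3, Slc39a14 and Slc39a1 kept their call and direction under every alternative and in all 12 fits without 1 mouse. Of the others, Slc30a1 passed without Vehicle mouse 3 and Slc30a3 ranged from -0.29 to 0.0855, turning sign without Vehicle mouse 1. For LJP against Vehicle, 4 genes and 0 members were called. DESeq2 called 2298 genes (3.69% of its genes higher and 9.15% lower) and 5 members. No filter on low counts gave 593 and 3, and only the 2 groups compared gave 2 genes. Leaving out 1 mouse gave 3 to 3857 genes and 0 to 5 members. The cause of the gap between DESeq2 and edgeR was not tested. For LJP against Sham, with 834 genes and 2 members called, DESeq2 gave 1458 and 4, no filter 4 members, only the 2 groups compared 4043 and 6, and leaving out 1 mouse 393 to 2357 genes and 1 to 4 members. No other direction turned. The totals in this section were not split by direction, except where a share is given here or above.

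With the replicate block, LJP against Vehicle had 2 genes called and LJP against Sham 464 genes and 1 member (Mt1 was lost, adjusted p = 0.0626), and Vehicle against Sham had 6110 genes and 5 members. The numbers did not pair the mice: correlations of same-numbered mice lay between -0.32 and 0.11, 1 of 12 was over 0.1, and 2 of 12 mice correlated best with their own number. Slc30a1 in Vehicle against Sham (0.33, SE 0.146) did not pass, whereas a smaller difference with less spread, Slc30a9 at -0.30 (SE 0.0917), did.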

Other observations

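The genes on either side of the metallothionein cluster did not share its rise. Bbs2, a ciliary gene on the Mt4 side, had a log2 difference of -0.37 (SE 0.138, edgeR adjusted p = 0.0509) in Vehicle against Sham, and Nup93, a nuclear pore gene on the Mt1 side, had 0.06 (SE 0.145, adjusted p = 0.748). In LJP against Vehicle the values were 0.41 (SE 0.138, adjusted p = 0.0913) and -0.12 (SE 0.145, adjusted p = 0.578).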
